A study of Mus musculus with 10 samples.

Results

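The replication-dependent histone genes were followed across all 10 libraries of a mouse spleen RNA sequencing series. Members were the genes whose GRCm38-era symbol begins with Hist1h, Hist2h, Hist3h or Hist4h in the GENCODE M21 annotation. The rule found 68 of the 45706 genes in the deposited table. Of these, 6 encode the linker histone H1, 20 H2A, 17 H2B, 12 H3 and 13 H4. The symbols Hist1h2bh and Hist1h2bm were not analysed here. The annotation classes 3 members as pseudogenes, namely Hist1h2aj, Hist1h2al and Hist3h2bb-ps.

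Libraries were made from T cells and from cDC2s, the conventional type 2 dendritic cells. Cells came from mice labelled Cd47f/f, which carry a floxed allele of Cd47, and from mice labelled Cd47ΔT. There were 2 Cd47f/f and 2 Cd47ΔT libraries of T cells, and 3 Cd47f/f and 3 Cd47ΔT libraries of cDC2s. The sources used here do not give the Cre line, the deleted exons, the age and sex of the mice, how cells were isolated or whether libraries came from separate mice. The p-values therefore describe the spread among these libraries alone, which may be technical. T cell libraries were made with a TruSeq stranded mRNA kit, which selects RNA with a poly(A) tail, and cDC2 libraries with a SMART-seq stranded kit, which primes at random. Values are TPM, the abundance of a gene's transcripts per unit of length as a share of its library.

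Replication-dependent histone genes supply the H1, H2A, H2B, H3 and H4 proteins that package newly copied DNA, and most of their mRNA is made during S phase. Their mRNAs are the known exception among protein-coding transcripts in that most end in a short stem-loop, bound by SLBP, in place of a poly(A) tail. NPAT and FLASH (encoded by Casp8ap2) activate the genes, and the U7 particle, with LSM10 and LSM11, helps cut the transcript after the stem-loop.

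The members lie in clusters. On chromosome 13, 23 members lie between 21715763 and 22043676 and 30 between 23531050 and 23934851 (GRCm38). Chromosome 3 holds 10 members between 96219865 and 96270132, chromosome 11 holds 3 between 58948920 and 58956830, and Hist4h4 lies alone on chromosome 6. In 13 divergent pairs, an H2A and an H2B gene start less than 500 bases apart on opposite strands, as Hist1h2ae and Hist1h2bg do.

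The stem-loop is shown because it stands where other mRNAs have the tail that the T cell kit selects on. It was searched after the stop codon of GENCODE M21 transcripts as a run of 16 bases that reads GG, any 3 bases, T, any 4 bases of loop, A, any 3 bases and CC, and whose 6 stem bases pair, with G to T pairs allowed. A match was found in 44 of the 65 coding members, at a median of 31.5 bases past the stop codon and within a range of 21 to 58. Other protein-coding genes were searched in a different window, the last 200 bases of each transcript, where 0.426% of 21836 genes held a match. These shares are therefore not measured alike. Of the 21 coding members without one, 15 have models that end within 5 bases of the stop codon. There were 8 distinct stem-loops, and the most frequent was shared by 24 members of the H1, H2A, H2B and H3 subclasses. Each sequence below has the stem-loop in capitals, with 5 flanking bases on each side, all of which lie in the 3′ untranslated region.
Hist2h2aa1: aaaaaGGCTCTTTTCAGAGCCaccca
Hist3h2a: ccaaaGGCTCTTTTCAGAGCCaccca
Hist3h2ba: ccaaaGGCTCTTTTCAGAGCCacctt
Hist1h1c: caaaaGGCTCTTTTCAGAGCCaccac
Hist1h2ae: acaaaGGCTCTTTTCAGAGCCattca
Hist1h2bj: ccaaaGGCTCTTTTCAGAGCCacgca
Hist1h3a: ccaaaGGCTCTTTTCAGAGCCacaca
Hist1h4d: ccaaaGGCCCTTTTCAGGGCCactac
Hist1h4i: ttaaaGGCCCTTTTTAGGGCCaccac

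The stem-loop of Hist2h2aa1 lies at chr3:96246032-96246047 on the plus strand and that of Hist3h2a at chr11:58955172-58955187 on the plus strand. Those of Hist1h3a (chr13:23761890-23761905) and Hist1h2ae (chr13:23570668-23570683) lie on the minus strand. Annotated transcripts differ in what follows. The longest model of Hist3h2a runs 1643 bases past its stem-loop, that of Hist1h1c 840 bases and that of Hist1h4i 330 bases, while those of Hist2h2aa1 and Hist1h2bj end 35 and 23 bases past it. Models of 22 members run at least 100 bases past the stem-loop and those of another 22 end nearer to it.

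Promoter sequences were compared between subclasses. Of the members, 60 had a promoter in RefSeq (GRCm38.p6), and the 250 bases before each start were searched on both strands. The octamer ATTTGCAT, read as ATGCAAAT on the other strand and known to bind OCT1 (encoded by Pou2f1), was in 13 of 60 members against 1.77% of other genes. All of them were H2A (7 of 18) or H2B (6 of 14) genes. Some matches are the same site, counted for both genes of a divergent pair. This holds for Hist1h2ae and Hist1h2bg, for Hist1h2aa and Hist1h2ba, and for Hist1h2ah and Hist1h2bk. The letters CCAAT or ATTGG were in 49 of 60, against 37.4% of other genes, and in 3 of 12 H4 genes. TATAAA or TTTATA was in 29 of 60, against 14.25%. These are matches to letters and not measured binding sites. Hist1h2ae (chr13:23571221-23571420, minus strand), Hist3h2a (chr11:58954485-58954684, plus strand) and Hist1h4d (chr13:23581368-23581567, plus strand) are shown over the 200 bases before the start, since their values are described below, with the searched letters in capitals.
Hist1h2ae: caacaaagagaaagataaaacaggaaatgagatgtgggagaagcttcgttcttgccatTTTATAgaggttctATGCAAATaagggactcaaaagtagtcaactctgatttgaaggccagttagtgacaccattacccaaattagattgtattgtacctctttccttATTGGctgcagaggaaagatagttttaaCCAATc
Hist3h2a: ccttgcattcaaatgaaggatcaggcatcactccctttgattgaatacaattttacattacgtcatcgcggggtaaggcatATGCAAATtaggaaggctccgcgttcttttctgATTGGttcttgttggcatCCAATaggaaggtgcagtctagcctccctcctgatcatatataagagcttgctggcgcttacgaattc
Hist1h4d: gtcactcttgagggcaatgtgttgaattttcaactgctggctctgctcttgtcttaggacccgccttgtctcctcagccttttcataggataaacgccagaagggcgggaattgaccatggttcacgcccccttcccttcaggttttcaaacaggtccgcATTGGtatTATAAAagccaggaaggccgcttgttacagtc

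The targeted gene was measured first. Cd47 stood at 138 and 233 TPM in T cells of Cd47f/f mice, against 40.4 and 51.7 TPM in those of Cd47ΔT mice, a log2 fold change of -1.95 ± 0.26 (SE, adjusted p = 0.0112 in limma). In cDC2s the log2 fold change was -0.0022 ± 0.10 (adjusted p = 0.995). T cell markers matched the labels: Cd3g was at 851 to 957 TPM in T cells and listed at 0 in every cDC2 library. Sirpa, a cDC2 marker, was at 307 to 493 TPM in cDC2s and at 1.91, 2.78, 15.6 and 28.3 TPM in the T cell libraries, higher in both Cd47ΔT ones. The T cell libraries also differed between genotypes in markers of other cells. The summed monocyte list went from 751 and 935 TPM in Cd47f/f to 2472 and 2673 TPM in Cd47ΔT, the macrophage list from 15.5 and 19.7 to 130.2 and 209 TPM and the B cell list from 16.1 and 19.8 to 60.9 and 128 TPM, while the T cell list gave 7159 and 7056 against 7251 and 6608 TPM. Most of the monocyte sum was Ly6c2 and Plac8. Ly6c2 went from 595 and 738 to 1707 and 1738 TPM, and Plac8 from 124 and 128 to 510 and 495 TPM. Csf1r of the same list was far lower, at 2.34 and 4.23 against 20.6 and 34.9 TPM. The third cDC2 library of Cd47f/f stood apart in small nucleolar RNA, with 1.56% of its TPM against 7.20% to 8.63% in the other 5.

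Levels of the histone genes differed by orders of magnitude between the cell types, which cannot be told apart from the kits and were therefore not tested. All members together made up 98.5 and 87.7 TPM in the Cd47f/f T cells, 114 and 110.05 TPM in the Cd47ΔT T cells, 24540.0, 31201 and 31946 TPM in the Cd47f/f cDC2s and 38834, 37183 and 42943 TPM in the Cd47ΔT cDC2s. As a share of all TPM that was 0.0088% to 0.0114% in T cells and 2.45% to 4.29% in cDC2s. In 60 of the 68 members, every cDC2 library lay above every T cell library, which was so for 15.8% of the 22203 genes above 0 TPM in at least 1 library. The median ratio of the cDC2 mean to the T cell mean was 601 over the 59 members above 0 in T cells. For comparison, the summed S phase list of 40 genes stood at 798 to 1620 TPM in T cells and at 1206 to 1501 TPM in cDC2s. Rn7sk, an RNA without a tail that holds P-TEFb inactive, was at 12.1 to 64.7 TPM in T cells and at 36082 to 52368 TPM in cDC2s.

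**Figure D1:**
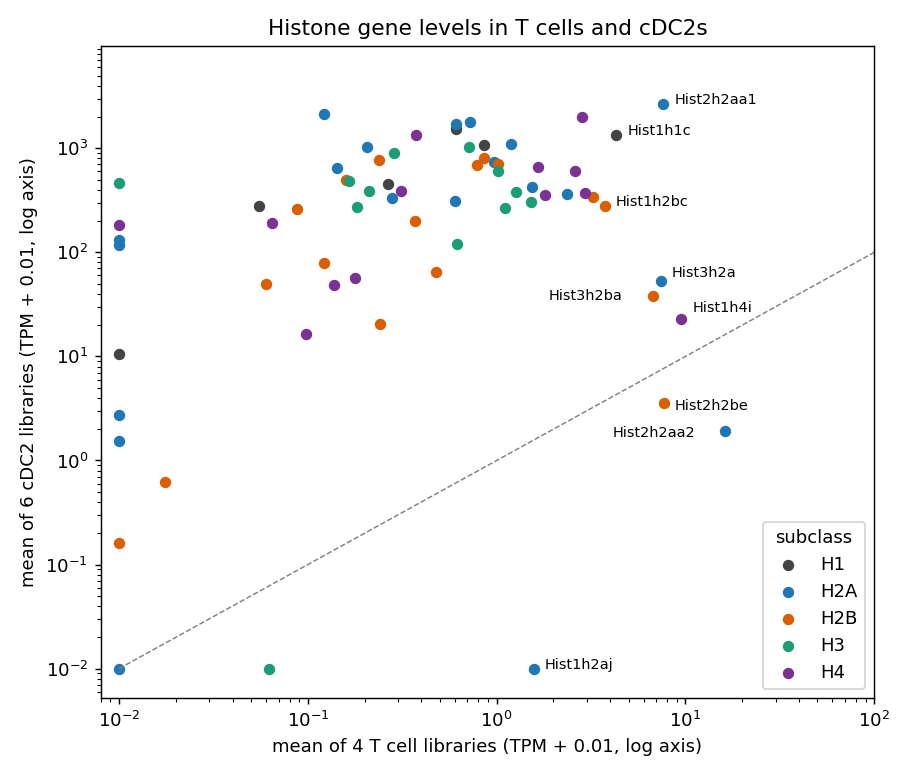
Each point is 1 of the 68 histone genes, with its mean TPM over the 4 T cell libraries on the x axis and over the 6 cDC2 libraries on the y axis, both logarithmic with a small constant added so that genes listed at 0 sit at the edge. Colour gives the subclass and the dashed line marks equal levels. Most genes lie far above the line, while Hist2h2aa2, Hist2h2be, Hist1h2aj and Hist2h3c1 lie below it.

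Only 2 members had every T cell library above every cDC2 library, against 25.5% of those 22203 genes. One was Hist2h2be, an H2B gene (chr3:96221119-96223738), at 9.02 and 8.91 TPM in Cd47f/f T cells, 6.47 and 6.24 TPM in Cd47ΔT T cells and 2.85 to 5.51 TPM in cDC2s. The other was Hist2h2aa2, at 15.4, 15.9, 17.1 and 16.3 TPM in T cells and at 0 in 4 of the 6 cDC2 libraries. Hist2h2aa2 shares its whole coding sequence of 393 bases with Hist2h2aa1, and 0.0% of its 50-base words were unique to it among annotated transcripts, so the split of reads between these copies is uncertain. Hist2h2aa1 ranked first in cDC2s, at 1827 to 3327 TPM, and stood at 6.30 to 9.26 TPM in T cells. Summed, the copies gave 23.6, 25.1, 23.9 and 22.6 TPM in the T cell libraries in that order and 1827 to 3327 TPM in cDC2s, so the reversed order of Hist2h2aa2 was not seen in the sum. The 6 members with neither order were Hist1h2aa, Hist1h2aj, Hist1h2al, Hist1h2ao, Hist1h2ba and Hist2h3c1, each at 0 TPM in some libraries of both cell types or in all libraries of 1.

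The order of the members differed between the libraries of the cell types. In T cells, 8 members held 61.6% of the histone TPM, namely Hist2h2aa2, Hist1h4i, Hist2h2be, Hist2h2aa1, Hist3h2a, Hist3h2ba, Hist1h1c and Hist1h2bc. In cDC2s the 8 highest held 41.9%, namely Hist2h2aa1, Hist1h2af, Hist1h4d, Hist1h2ap, Hist1h2ak, Hist1h1d, Hist1h1c and Hist1h4k. Hist1h4i, an H4 gene (chr13:22040636-22041362), was at 7.55, 8.52, 11.6 and 10.4 TPM in T cells and at 15.1 to 29.9 TPM in cDC2s, where Hist1h4d, which encodes the same protein, was at 1698 to 2282 TPM. All 13 H4 genes encode 1 protein of 103 residues, while their coding sequences share from 85.3% to all of their bases pair by pair. Members listed at 0 TPM numbered 31, 28, 23 and 19 in the T cell libraries and 5 or 6 in the cDC2 libraries, and Hist1h2aa was at 0 in all 10.

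The canonical poly(A) signal AATAAA was in the last 50 bases of an annotated transcript of 15 members, against 65.8% of other protein-coding genes. This split was chosen after the values were seen. These 15 held 28.1% of the histone TPM in T cells and 6.92% in cDC2s, and 4 of the 8 highest members in T cells, Hist2h2be, Hist3h2a, Hist3h2ba and Hist1h1c, were among them. Hist1h1c, which encodes a somatic H1, was the 1 such member among the 8 highest in cDC2s. The median of the member means was lower with the signal than without it in both cell types. It was 0.128 against 0.60 TPM in T cells and 50.1 against 389 TPM in cDC2s. A T cell mean of 1 TPM or more was reached by 5 of the 15, against 18 of the other 53.

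In cDC2s, nearly all histone genes were higher in Cd47ΔT, but few passed the test. Of the 68 members, 61 passed the filter of 1 TPM in 3 cDC2 libraries and were tested, and 57 of these had a positive log2 fold change on the log2(TPM + 1) scale, with a median of 0.47 against -0.07 over all 12058 genes tested. In 41 members every Cd47ΔT library lay above every Cd47f/f library, against 6.38% of all genes, and in 0 the reverse held, against 13.5%. After Benjamini-Hochberg adjustment 2 members were higher and 0 lower in limma, where 0.249% of all genes were higher and 0.381% lower (0.63% in either direction). An unadjusted p under 0.05 in limma was found for 44 members, against 1618 of the 12058 genes tested. The summed TPM of the members was 1.36 times as high in Cd47ΔT, 39653 ± 2966 against 29229 ± 4078 TPM (SD, n = 3 each).

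Hist1h2bc and Hist1h2ae passed the threshold. Hist1h2bc (ENSMUSG00000018102, chr13:23684199-23692908), an H2B gene, stood at 194, 222 and 227 TPM in Cd47f/f and at 335, 341 and 339 TPM in Cd47ΔT. Its genotypes did not overlap, and the log2 fold change was 0.66 ± 0.091 (SE, adjusted p = 0.0292). Hist1h2ae (ENSMUSG00000069272, chr13:23570517-23571220), an H2A gene whose stem-loop and promoter are printed above, stood at 247, 288 and 350.2 TPM in Cd47f/f and at 510.2, 553 and 582 TPM in Cd47ΔT. Here too every Cd47ΔT library was higher, with a log2 fold change of 0.90 ± 0.13 (adjusted p = 0.0363). Both calls were lost with no filter, with no variance trend and with 1 fit of all libraries, and adjusted p ran from 0.0233 to 0.137 for Hist1h2bc and from 0.0237 to 0.134 for Hist1h2ae over all alternatives. Hist1h2bc also lost its call without any 1 of the 6 cDC2 libraries (0.0586 to 0.117), and Hist1h2ae without any 1 other than Cd47f/f replicate 3 (0.10 to 0.134).

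**Figure D2:**
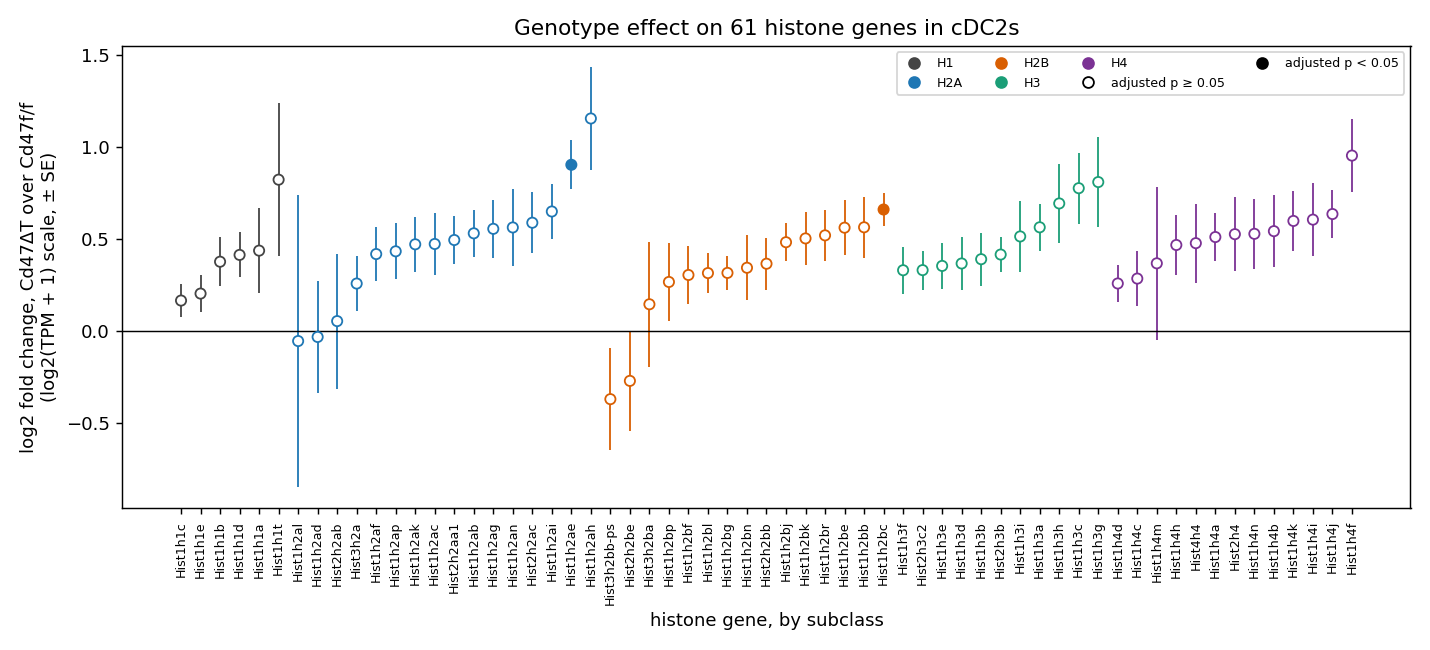
Genotype effect on log2(TPM + 1), as Cd47ΔT minus Cd47f/f with its standard error, for the 61 histone genes tested in cDC2s, grouped and coloured by subclass. Filled points have an adjusted p under 0.05, which are Hist1h2ae and Hist1h2bc, and 57 of the 61 points lie above 0.

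The same direction was seen in each subclass. Every Cd47ΔT library lay above every Cd47f/f library for 3 of 6 H1 genes, 11 of 16 H2A genes, 9 of 15 H2B genes, 10 of 11 H3 genes and 8 of 13 H4 genes. Their median log2 fold changes were 0.40, 0.48, 0.34, 0.42 and 0.53 in that order. The H4 share of the histone TPM varied little, between 17.96% and 18.33% over the 6 libraries, while the H1 share was 15.3%, 14.6% and 13.5% in Cd47f/f and 12.8%, 13.1% and 13.01% in Cd47ΔT. Among the H1 genes, Hist1h1c was at 1200, 1318 and 1282 TPM against 1349, 1406 and 1508 TPM, without overlap but with a log2 fold change of only 0.17 ± 0.088 (adjusted p = 0.477).

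The members furthest from 0 were not those that passed. Hist1h2ah, an H2A gene, stood at 154, 184 and 285 TPM in Cd47f/f and at 429, 333 and 633 TPM in Cd47ΔT, a log2 fold change of 1.16 ± 0.28 (adjusted p = 0.130). Hist1h4f stood at 206, 366 and 236 against 516, 468 and 539.5 TPM (0.95 ± 0.20, adjusted p = 0.0959). Both were without overlap, and their libraries varied more within a genotype than those of Hist1h2bc. The 4 members with a negative value, Hist1h2al, Hist1h2ad, Hist2h2be and Hist3h2bb-ps, all overlapped between genotypes. Members with at least 50% of their 50-base words unique were without overlap and higher in 20 of 32 cases, and members with fewer in 21 of 29.

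Small non-coding RNA, most of it without a tail, was also higher in the Cd47ΔT cDC2 libraries. It took 17.6%, 21.2% and 16.04% of the TPM in Cd47f/f and 25.1%, 22.0% and 21.7% in Cd47ΔT, without overlap. TPM are shares, so a larger share for one class lowers the rest, and its part in the histone values was not tested. Most T cell markers were at or near 0 in cDC2s, with Cd3g, Trbc2 and Bcl11b at 0 in every library and the list of 10 at 14.9 to 22.8 TPM, most of it Cd5. The B cell list summed to 233, 264 and 210.3 TPM in Cd47f/f and to 155, 142 and 105 TPM in Cd47ΔT. The monocyte list summed to 537, 499 and 570.4 against 364, 395 and 449 TPM, and the cDC2 list to 11227, 10526 and 13312 against 10179, 9937 and 10037 TPM, with 1 of 5 and 1 of 11 tested markers lower in limma. These 3 were the marker lists whose sums did not overlap between the cDC2 genotypes, all lower in Cd47ΔT. Most of the B cell sum was Cd22 (213, 239 and 180 against 132, 121 and 81.0 TPM), and most of the cDC2 sum H2-Ab1. Of the markers tested, 1 of 3 B cell, 2 of 5 monocyte and 3 of 11 cDC2 markers had a positive log2 fold change. Ms4a1 (7.64, 6.74 and 8.76 against 10.5, 10.3 and 9.82 TPM) and Fcgr1 (0.47, 0.47 and 0.42 against 2.26, 3.27 and 1.94 TPM) were higher without overlap. The part of these lists in the histone values was not tested. After scaling each library to its protein-coding genes other than members, mitochondrial and immunoglobulin genes, 48 members were higher without overlap, against 10.2% of all genes. The genes used for this scaling held 67.2%, 64.1% and 70.8% of the TPM in Cd47f/f and 60.8%, 63.7% and 64.8% in Cd47ΔT. The scaling itself therefore raised Cd47ΔT values relative to Cd47f/f values on average. Without Cd47f/f replicate 3, the library that stood apart in small nucleolar RNA, the count was also 48, against 11%. In bulk samples a different number of cycling cells and a different amount of RNA per cell cannot be told apart.

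**Figure D3:**
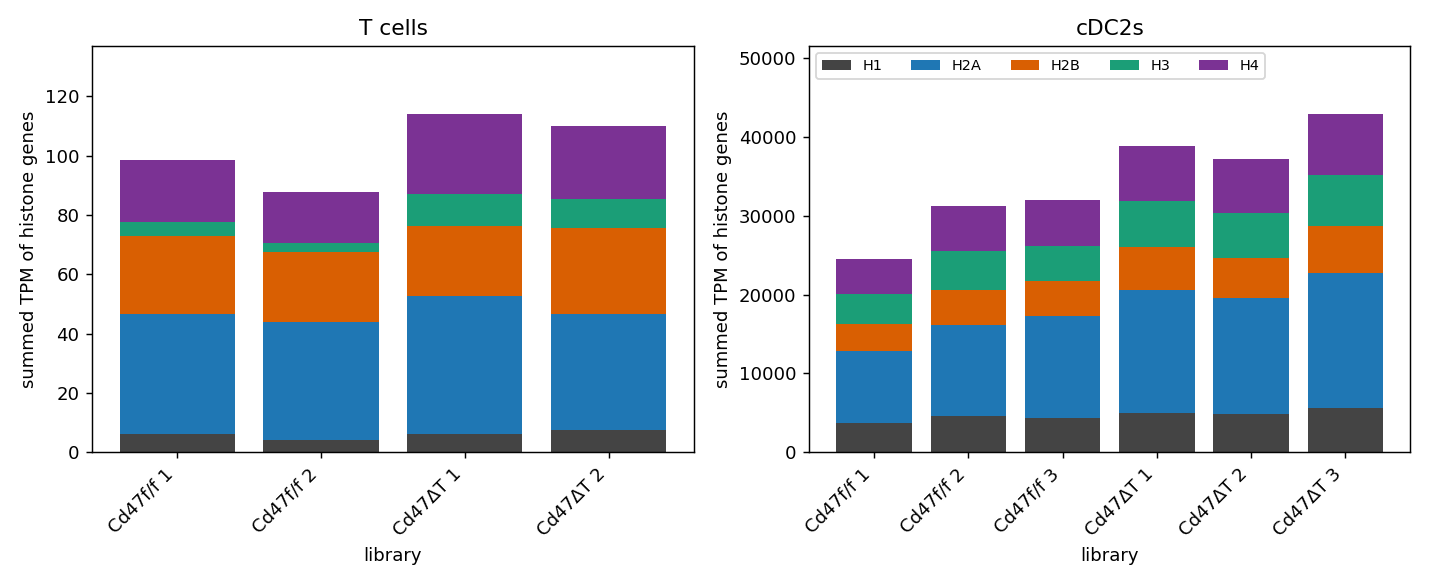
Summed TPM of the 68 histone genes in each library, stacked by subclass, with T cells on the left and cDC2s on the right on separate axes that start at 0. The Cd47ΔT bars are the taller ones in both cell types, from 110.05 TPM in T cells and from 37183 TPM in cDC2s.

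In T cells few histone genes passed the test. Their share was near that of all genes, among which most calls were also higher in Cd47ΔT. Only 26 of the 68 members passed the filter of 1 TPM in 2 T cell libraries and were tested. Of these, 3 were higher and 0 lower in Cd47ΔT, where 8.5% of the 12453 genes tested were higher and 0.875% lower (9.37% in either direction). An unadjusted p under 0.05 in limma was found for 10 members, against 2693 of the 12453 genes. The log2 fold change was positive in 17 and negative in 9, with a median of 0.25 against 0.10 over all genes. Genotypes did not overlap in 13 members that were higher, against 37% of all genes, and in 6 that were lower, against 11.9%. Quantile scaling moved the median of all genes from 0.10 to -0.08 and that of the members to -0.13, with 12 of the 26 members positive. Under it 5 members were higher without overlap, against 22.6% of all genes, and 9 lower, against 37.6%, so both shares were near those of all genes. The direction of the median in T cells was therefore reversed under quantile scaling. It stayed positive with median-of-ratios and protein-coding scaling, where 14 and 15 of the 26 members were positive.

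The members that rose in Cd47ΔT T cells were low in every library. Hist1h3a (ENSMUSG00000069265, chr13:23761853-23762386), an H3 gene, stood at 0.52 and 0.17 TPM in Cd47f/f and at 2.64 and 2.75 TPM in Cd47ΔT, a log2 fold change of 1.47 ± 0.24 (SE, adjusted p = 0.0185). Hist1h2bj (ENSMUSG00000069300, chr13:22043214-22043676), an H2B gene, stood at 1.56 and 0.58 against 4.40 and 6.35 TPM (1.65 ± 0.32, adjusted p = 0.0283). The pseudogene Hist1h2aj was listed at 0 in both Cd47f/f libraries and stood at 4.65 and 1.59 TPM in Cd47ΔT (adjusted p = 0.0315). None of these genotypes overlapped, and both Cd47ΔT libraries were the high ones. All 3 lost their call with quantile scaling and with no filter on low values, and Hist1h2aj also with a pseudocount of 5 (adjusted p = 0.0712). At such levels the log2 fold change depends on the pseudocount. With pseudocounts of 5 and 0.1 it was 0.53 and 2.77 for Hist1h3a, 0.77 and 2.34 for Hist1h2bj and 0.67 and 4.82 for Hist1h2aj. Hist1h2bj was also lost without Cd47f/f replicate 2 (adjusted p = 0.0554, and 2.5e-08 to 0.125 over all alternatives). Hist1h2aj was lost without either Cd47f/f replicate (0.112 and 0.0847, and 9.8e-11 to 0.123 over all).

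Hist1h2aj shares most of its sequence with other H2A members. Only 6.9% of its 50-base words were unique. The largest share, 93.1%, was also in Hist1h2ai, an H2A gene in the same cluster, and 86.8% were in each of Hist1h2ad and Hist1h2ah. Hist1h2ai had a negative value, at 2.19 and 1.59 TPM in Cd47f/f and 0 and 0.93 TPM in Cd47ΔT (log2 fold change -1.05 ± 0.36, adjusted p = 0.147). It passed as lower in 3 of 14 alternatives, with 1 fit of all libraries (0.0460), with the replicate number as a block (0.00142) and without Cd47ΔT replicate 2 (0.00785). The sum of Hist1h2aj and Hist1h2ai was 2.19 and 1.59 TPM against 4.65 and 2.52 TPM. In cDC2s the pseudogene was at 0 in all 6 libraries and Hist1h2ai at 696 to 1425 TPM. The division of reads among these copies is uncertain.

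**Figure D4:**
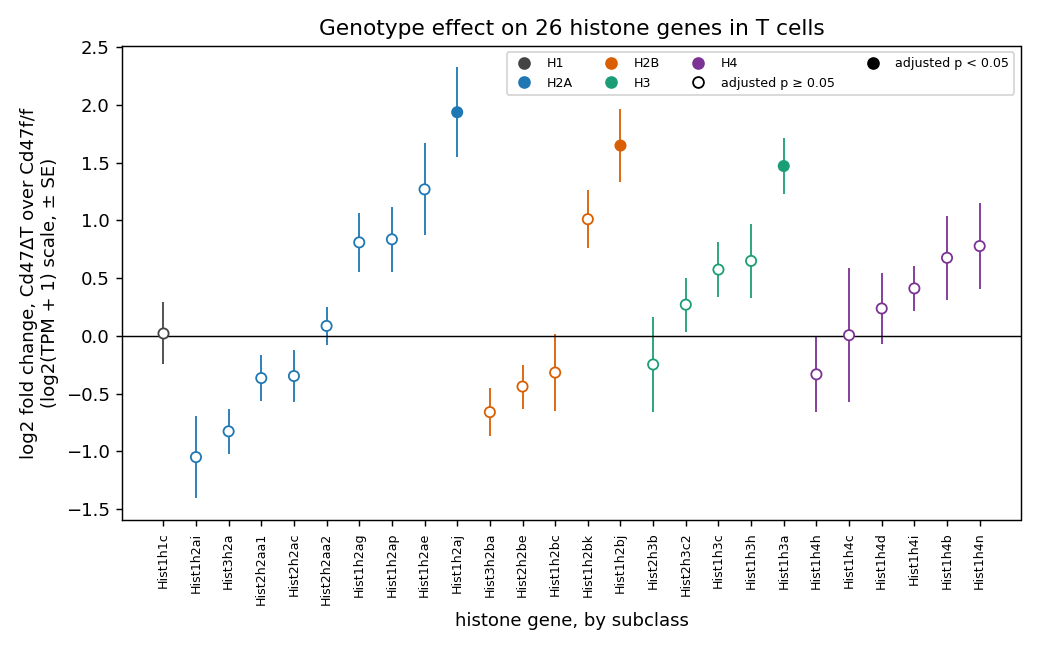
Genotype effect on log2(TPM + 1), as Cd47ΔT minus Cd47f/f with its standard error, for the 26 histone genes tested in T cells, grouped and coloured by subclass. Filled points have an adjusted p under 0.05, which are Hist1h2aj, Hist1h2bj and Hist1h3a, and 9 of the 26 points lie below 0.

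Both coding genes of the small cluster on chromosome 11 had negative log2 fold changes in T cells. Hist3h2a (ENSMUSG00000078851, chr11:58954685-58956830), an H2A gene, stood at 10.3 and 9.26 TPM in Cd47f/f T cells and at 4.91 and 5.26 TPM in Cd47ΔT T cells, a log2 fold change of -0.83 ± 0.20 (adjusted p = 0.0541). Hist3h2ba (ENSMUSG00000056895, chr11:58948920-58949533), an H2B gene, stood at 9.36 and 7.66 against 4.78 and 5.22 TPM (-0.66 ± 0.21, adjusted p = 0.122). In both, the 2 Cd47ΔT libraries were the low ones. Neither passed the threshold, although Hist3h2a did in 7 of 15 alternatives, with adjusted p from 0.00695 to 0.422 over all of them. Hist3h2ba passed in 2 of 15, with quantile scaling (0.0499) and with the replicate number as a block (0.0487), and its adjusted p ran up to 0.703. Hist2h2be was also lower without overlap (-0.44 ± 0.19, adjusted p = 0.258).

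The ratio of the sums differed between clusters in T cells. Members on chromosome 13 summed to 42.6 and 32.9 TPM in Cd47f/f and to 71.0 and 67.9 TPM in Cd47ΔT, a ratio of means of 1.84. Those on chromosome 11 summed to 19.9 and 17.3 against 9.69 and 10.8 TPM, a ratio of 0.55, and those on chromosome 3 to 35.9 and 37.5 against 33.5 and 31.1 TPM, a ratio of 0.88. In cDC2s the ratios of the clusters on chromosomes 13, 11 and 3 were 1.36, 1.07 and 1.36. By subclass, H3 differed most in T cells, from 4.68 and 3.14 to 10.9 and 9.48 TPM, a ratio of 2.61. The 5 members tested in T cells that have the poly(A) signal had a median log2 fold change of -0.44, and the 21 without it a median of 0.41. Both sets were mixed in sign. Of the 5, Hist1h2ae (1.27) and Hist1h1c (0.023) were positive, Hist2h2be, Hist3h2a and Hist3h2ba were negative, and 0 passed. Of the 21, 15 were positive and 6 negative, and 3 passed.

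Markers of other cells and RNA without a tail also differed between the T cell genotypes. Of the marker lists summed above, all 6 monocyte, 8 macrophage and 5 B cell markers tested rose in Cd47ΔT. So did 5 of 6 natural killer cell markers, with sums of 45.7 and 69.4 against 189 and 309 TPM, and 5 of 6 plasma cell markers, with 96.4 and 112 against 406 and 444 TPM. No marker of the monocyte, macrophage, natural killer or plasma cell lists was at 0 in any T cell library, and of the B cell list Ebf1 was at 0 in 1. Small non-coding RNA took 0.0361% and 0.054% of the TPM in Cd47f/f and 0.068% and 0.0802% in Cd47ΔT, and Rn7sk was at 19.3 and 12.1 against 39.8 and 64.7 TPM (log2 fold change 1.66 ± 0.30, adjusted p = 0.0243). Their part in the histone values was not tested.

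The genotype effect itself differed between the cell types in 4 of the 24 members that passed both filters, where the interaction in limma called 5.7% of 10650 genes, 5.4% with the higher effect in T cells and 0.3% with the lower. Hist1h2ai, Hist3h2a and Hist2h2aa1 had the lower effect in T cells and Hist1h2bj the higher one. Hist2h2aa1 stood at 8.17 and 9.26 against 6.77 and 6.30 TPM in T cells and at 1827, 2321 and 2449 against 3077, 2837 and 3327 TPM in cDC2s, without overlap in either and in opposite directions. Summed with its near copy Hist2h2aa2, it gave 23.6 and 25.1 against 23.9 and 22.6 TPM in T cells. There the genotypes overlapped, so the opposite direction was not seen without overlap in the sum. Hist3h2a was at 40.8, 50.8 and 54.1 against 51.7, 56.7 and 65.9 TPM in cDC2s, where the genotypes overlapped. Since each cell type has its own kit, the difference cannot be told apart from one between kits. Its sign also depended on the pseudocount. With pseudocounts of 0.1, 1 and 5 the difference was positive in 12, 8 and 1 of the 24 members.

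Genes of DNA replication and division are listed for comparison. In the S phase list, 24 of 40 genes rose in Cd47ΔT T cells and 0 fell, with a median log2 fold change of 0.86, and in the list of G2 and mitosis 24 of 25 rose, with a median of 1.85. Mki67, a marker of cycling cells, went from 6.19 and 12.99 to 41.0 and 44.3 TPM (2.12 ± 0.31, adjusted p = 0.0140). Rrm2, a subunit of the enzyme that makes deoxyribonucleotides, went from 14.5 and 19.9 to 78.0 and 66.5 TPM (2.02 ± 0.19, adjusted p = 0.00490). The summed S phase list in Cd47ΔT T cells was 1.80 times that in Cd47f/f and the histone sum 1.20 times, and the ratio of the histone sum to the S phase sum went from 0.123 and 0.0923 to 0.0705 and 0.0720. In cDC2s it went from 19.2, 25.9 and 24.3 to 29.3, 26.3 and 28.6. There 0 of 40 S phase and 0 of 25 mitotic genes passed in limma, with medians of 0.14 and 0.32. Unadjusted p was under 0.05 for 5 S phase and 10 mitotic genes, against 1618 of the 12058 genes tested in cDC2s. By overlap, 15 of the 25 mitotic genes were higher in every Cd47ΔT cDC2 library and 0 lower, and 6 of the 40 S phase genes were higher and 2 lower, against the 6.38% and 13.5% of all genes given above.

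**Figure D5:**
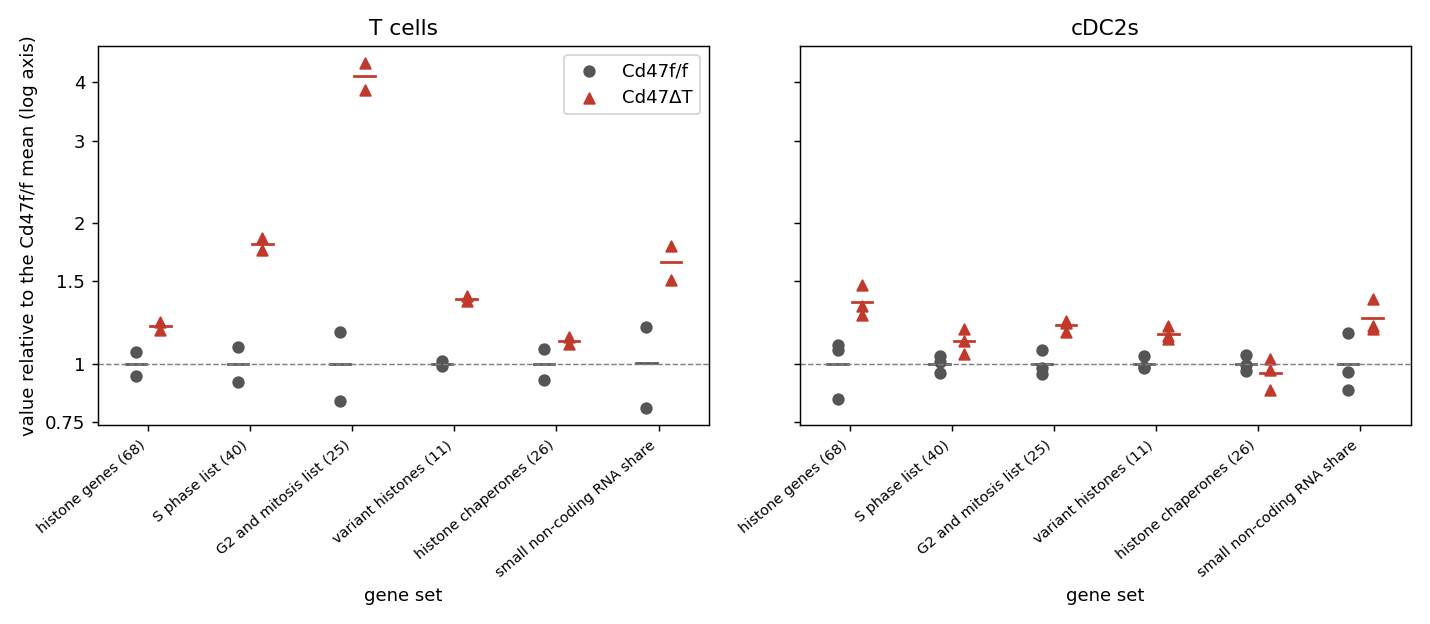
Summed TPM of 5 gene sets and the share of small non-coding RNA in each library, relative to the Cd47f/f mean of the same cell type, on a logarithmic axis, with the group mean as a bar. In T cells the S phase and mitosis lists lie further above 1 than the histone genes, and in cDC2s the histone genes have the largest ratio of the sets shown, 1.36.

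Most genes of variant histones are also active outside S phase and make mRNAs with a poly(A) tail, while the mRNA of H2afx is known in both a stem-loop and a tailed form. In T cells 4 of 9 tested rose and 0 fell, with a median log2 fold change of 0.57. H2afz, which encodes H2A.Z, went from 303 and 302 to 599 and 561 TPM (0.94 ± 0.095, adjusted p = 0.00587), and H2afx, which encodes the H2A.X of the DNA damage response, from 52.6 and 57.6 to 104 and 98.7 TPM (0.87 ± 0.12, adjusted p = 0.0127). Cenpa, the centromeric H3, was also higher (0.99 ± 0.14, adjusted p = 0.0135). In cDC2s 0 of 10 variants passed in limma, with 5 at an unadjusted p under 0.05, against 1618 of all 12058 genes tested. H2afz stood there at 318, 333 and 325 TPM against 434, 452 and 487 TPM, without overlap (0.49 ± 0.083, adjusted p = 0.0572), and passed in 6 of 17 alternatives. Levels of H3f3a, an H3.3 gene, were 845 and 900.07 against 1087 and 1102 TPM in T cells and 1313, 1333 and 1484 against 1797, 1712 and 1862 TPM in cDC2s, with adjusted p of 0.0779 and 0.127. In cDC2s 4 of the 10 variants had a negative value, and 2 were lower without overlap against 3 that were higher. H3f3b, the other H3.3 gene, stood there at 430.4, 426 and 456 against 366, 352 and 418 TPM (-0.21 ± 0.094, adjusted p = 0.388). H2afy, which encodes macroH2A1, stood at 452, 433 and 423 against 359, 373 and 369.9 TPM (-0.25 ± 0.077, adjusted p = 0.228).

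The machinery that activates the histone genes and forms their 3′ ends was measured last. Of its genes, 0 of 17 passed in T cells and 0 of 18 in cDC2s, and the medians were 0.07 and -0.05. Unadjusted p was under 0.05 for 1 gene in each cell type, against 2693 of 12453 genes in T cells and 1618 of 12058 in cDC2s. Slbp, which encodes the stem-loop binding protein, stood at 51.6 and 67.0 against 94.3 and 88.8 TPM in T cells, without overlap (0.63 ± 0.16, adjusted p = 0.0632), and had a log2 fold change of 0.08 in cDC2s. In T cells Slbp passed in 5 of 15 alternatives. Npat stood at 7.60 and 11.7 against 8.86 and 10.9 TPM in T cells (0.05 ± 0.25, adjusted p = 0.957). Casp8ap2 had a log2 fold change of -0.016 in T cells and 0.035 in cDC2s, and Lsm11 of -0.0046 and 0.053. Of the histone chaperones, 3 of 26 rose in T cells and 0 fell, a share near the 8.5% of all genes that rose there. Among them were Asf1b (1.45 ± 0.17, adjusted p = 0.00810), which carries H3 and H4, and Chaf1a (1.59 ± 0.23, adjusted p = 0.0140), a subunit of CAF-1. In cDC2s 0 of 26 passed in limma, with 3 at an unadjusted p under 0.05, against 1618 of all 12058 genes tested.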

How the data were processed

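RNA sequencing of spleen T cells (4 libraries) and cDC2s (6 libraries) was grouped by cell type and genotype from the labels. The authors deposited TPM per Ensembl gene, made with STAR, RSEM and DESeq2 on GRCm38, per the submitters' processing notes, which give no versions. TPM keep no depth, so no counting error is given. Of 45706 identifiers, 45143 (98.8%) matched GENCODE M21, which gave symbols, positions and transcripts. No source used here gives the authors' annotation release or strand setting, which leaves overlapping genes and near copies uncertain. The filter for testing was 1 TPM in at least 2 T cell or 3 cDC2 libraries. Tests were run on log2(TPM + 1) with limma 3.58.1 in R 4.3.3 (lmFit, and eBayes with a variance trend), with genotype as the only term and Benjamini-Hochberg adjustment over all genes tested, called under 0.05. The interaction was fitted over all 10 libraries. The fits were tested on simulated data. Sequences and tables were handled with Python 3.11.15 and pandas 2.3.3.

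Members and lists were chosen with earlier results of these data known. Named genes were members called in any test, the 8 highest members of each cell type, the highest of each subclass, Cd47, a fixed set of regulators and variants, and up to 3 genes of each list. Others (Hist1h2ah, Hist1h4f, the negative members, Hist1h2ad, Hist1h2ai and Hist3h2ba in T cells, and H2afy) were chosen after their values were seen, and a few genes the rule names are not described. Alternatives were pseudocounts of 0.1 and 5, no filter, a filter of 5 TPM, quantile, median-of-ratios and protein-coding scaling, other variance trends (none or robust), the replicate number as a block, a joint fit with 4 groups and leaving out each library. Counts of members without overlap under these scalings and leave-outs were chosen after seeing the data.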

Additional observations from a re-analysis of the deposited data

Results flagged for a closer look

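The genotype effect, Cd47ΔT against Cd47f/f, differed between T cells and cDC2s in 4 histone genes by the interaction test in limma, which called 5.7% of all genes. For Hist1h2ai the effect in T cells minus that in cDC2s was -1.70 on the log2 scale (adjusted p = 0.0133), and it passed in 17 of 19 alternatives. For Hist3h2a the difference was -1.08 (adjusted p = 0.0235), passing in 14 of 20, and for Hist2h2aa1 it was -0.86 (adjusted p = 0.0211), passing in 13 of 20. For Hist1h2bj it was 1.16 (adjusted p = 0.0380), passing in 4 of 19. Hist1h2ai and Hist2h2aa1 share most of their 50-base words with other genes, with 9.9% and 10.6% unique, against 68.5% of those of Hist3h2a and 40.6% of those of Hist1h2bj. In T cells the sum of Hist2h2aa1 and its near copy Hist2h2aa2 overlapped between genotypes. With a pseudocount of 5 the difference was 0.29 for Hist1h2bj (adjusted p = 0.575 in limma) and -0.79 for Hist3h2a (0.0642). For Hist1h2ai it was -3.27 with a pseudocount of 0.1 (0.0799). None of these passed.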

How the results depend on the processing

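In T cells the count of higher members (3) was 0 without a filter, under the 5 TPM filter and under quantile scaling, 7 with 1 fit of all libraries, and 1 to 4 over leave-outs. The count of lower members (0) was 2 with quantile scaling and with 1 fit, 1 with median-of-ratios scaling and with no or a robust variance trend, and 0 to 1 over leave-outs. The T cell median (0.25) was 0.37 and 0.11 with pseudocounts of 0.1 and 5, -0.40 with the 5 TPM filter, which left 6 members, -0.13 with quantile scaling and 0.19 to 0.41 over leave-outs. Without overlap, 5 members (22.6% of all genes) were higher in T cells with quantile scaling. Over leave-outs 14 to 15 members were higher, against 41.3% to 70.3% of all genes, and 6 to 9 lower, against 15.7% to 42.4%. In cDC2s the count of higher members (2) was 0 with no filter and with no variance trend, 1 with 1 fit, and 0 to 1 over leave-outs. There the median ran from 0.32 to 0.50, and over leave-outs 41 to 48 members were higher without overlap, against 9.16% to 11.2% of all genes, and 0 to 2 lower, against 17.2% to 22%. The interaction (4) called 2 members with the 5 TPM filter and with no variance trend, 7 with quantile scaling, and 1 to 4 over leave-outs. Over all genes, quantile scaling gave 655 higher and 336 lower calls in T cells, against 1058 and 109. No filter gave 14 and 1, and no cDC2 call was left over all genes without Cd47f/f replicate 1 or Cd47ΔT replicates 1 or 3.

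Replicate numbers did not pair the cDC2 libraries (correlations of deviations -0.044, 0.059 and 0.12), and not every library correlated best with its own number. T cells had 2 pairs (0.19). With the number as a block, 8 members were higher and 3 lower in T cells, and 0 higher in cDC2s, and the interaction called 3.

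Some small effects changed sign. In T cells Hist1h1c was -0.38, -0.062 and -0.0071 with quantile, median-of-ratios and protein-coding scaling and -0.29 to 0.33 over leave-outs. Hist2h2aa2 was -0.075 and -0.0068 with quantile and median-of-ratios scaling, and Npat -0.19 and -0.035. Over leave-outs Npat ran from -0.23 to 0.33, Casp8ap2 from -0.57 to 0.54, Lsm11 from -0.19 to 0.18 and Hist1h2bc from -0.78 to 0.14. In cDC2s Cd47 was 0.067, 0.079 and 0.091 under the 3 scalings and -0.054 to 0.062 over leave-outs. There Pcna ran from -0.0076 to 0.26, Casp8ap2 from -0.16 to 0.31, Lsm11 from -0.25 to 0.28, Zfp473 from -0.036 to 0.30, Lsm10 from -0.11 to 0.27 and Npat from -0.27 to 0.053. The causes were not tested.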
